A study of Mus musculus with 9 samples.

Results

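Expression of the secondary and tertiary granule genes of neutrophils was examined in mouse leukemia cells through 9 genes, Camp, Ngp, Ltf, Lcn2, Mmp8, Mmp9, Cd177, Padi4 and Retnlg, out of 55536 genes in the table. They were chosen by name as products known from neutrophil granules or from the same stages of neutrophil maturation. The choice names the genes and sets no threshold on their values, but it was made with earlier results of these data known. The shares of all genes set beside their counts are therefore a description. All 9 had a row in the table and all 9 passed the filter on low values in each comparison.

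Neutrophil precursors build their granules in turn. Primary granules, loaded with myeloperoxidase and elastase, form in promyelocytes, secondary granules with lactoferrin and cathelicidin form in myelocytes and metamyelocytes, and tertiary granules rich in gelatinase form later still. The transcription factor C/EBP epsilon is needed for the secondary granule genes, which are commonly silent or low in immature myeloid leukemia cells.

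The 9 libraries fell into 3 groups of 3, named here as in the sample titles: WT c-kit- and WT c-kit+ cells of wild-type leukemia, and c-kit+ cells labelled IRF7-/-. All came from transplants of GFP+ acute myeloid leukemia cells that arose from bone marrow cells of wild-type or Irf7-deleted C57BL/6J mice infected with a retrovirus carrying the MLL-AF9 fusion and GFP, so that the fusion, GFP and the retroviral vector are shared by all groups and no untransformed neutrophils were profiled. In the deleted mice a cassette for a reporter and a resistance gene under the PGK promoter stands in place of part of Irf7 in every cell. By the labels, 1000000 cells per mouse were given without irradiation to C57BL/6J hosts of 6 to 8 weeks, the marrow was taken on day 18, and cells were sorted by surface c-kit, a receptor of immature cells. The hosts thus kept their own marrow. The labels say that leukemia cells were sorted from it and do not name the gate. Those cells carry GFP, and the study used a GFP+ gate in other experiments. Whether host neutrophils were present in these sorts was not tested. Whether equal replicate numbers share a mouse or a sort is not given, so p-values measure only the spread between these libraries, which may be technical. Values are TPM, transcript levels scaled by gene length to a fixed total per library, which keep no read depth, and the depth behind them is not known.

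Irf7 and Kit were read as checks of the labels. Irf7 ranged from 22.3 to 32.3 TPM in WT c-kit- and from 3.36 to 5.31 TPM in WT c-kit+, and was 12.8, 5.97 and 7.95 TPM in the libraries labelled IRF7-/- c-kit+. The last are all above WT c-kit+, which goes against the label, so these libraries are called by their label, on which each direction given for them depends. The table has 1 value for the whole of Irf7, so this check does not read the deleted part alone, and the study's separate assays of IRF7 are not part of the table. Kit was 0.52 to 3.03 TPM in WT c-kit- and 50.7 to 85.7 TPM in the 6 c-kit+ libraries.

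WT c-kit- replicate 3 stood apart from its group for neutrophil genes. All 9 granule genes were higher in it than the mean of replicates 1 and 2, by a median of 4.35-fold, from 1.20-fold for Mmp8 to 5.62-fold for Retnlg. So were 14 of 15 genes of a mature neutrophil list, by a median of 2.79-fold, Ly6g by 4.75-fold and Cxcr2 by 5.10-fold. Monocyte and macrophage markers had a median ratio of 0.91 and all genes of at least 1 TPM in the group a median of 0.962, with 4829 of 12199 above 1. The summed mature neutrophil list ran from 6214 to 25935 TPM in WT c-kit-, from 44118 to 86717 TPM in WT c-kit+ and from 2004 to 2726 TPM in the libraries labelled IRF7-/- c-kit+, with no gene of the list at 0 in any library, and its part in the differences between groups was not tested. S100a8 and S100a9 made up most of each sum, at 17013 to 32010 and 26183 to 53539 TPM in WT c-kit+. Gene by gene, 4 of the 15 were called higher and 3 lower in WT c-kit+ than in WT c-kit-, so the sum does not stand for the list. In bulk RNA, fewer cells of a type and less RNA per cell cannot be told apart. WT c-kit+ replicate 2 was the lowest of its group for all 9 granule genes, at a median of 0.537 times the mean of the other libraries. All genes of at least 1 TPM in WT c-kit+ had a median ratio of 1.01 there, with 6465 of 12116 above 1. Comparisons of the 9 genes with WT c-kit- are therefore given with and without its replicate 3. That library was singled out by the values of these same genes, so leaving it out lowers their WT c-kit- means by construction. Calls and p-values without it carry that choice and are a description.

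**Figure D1:**
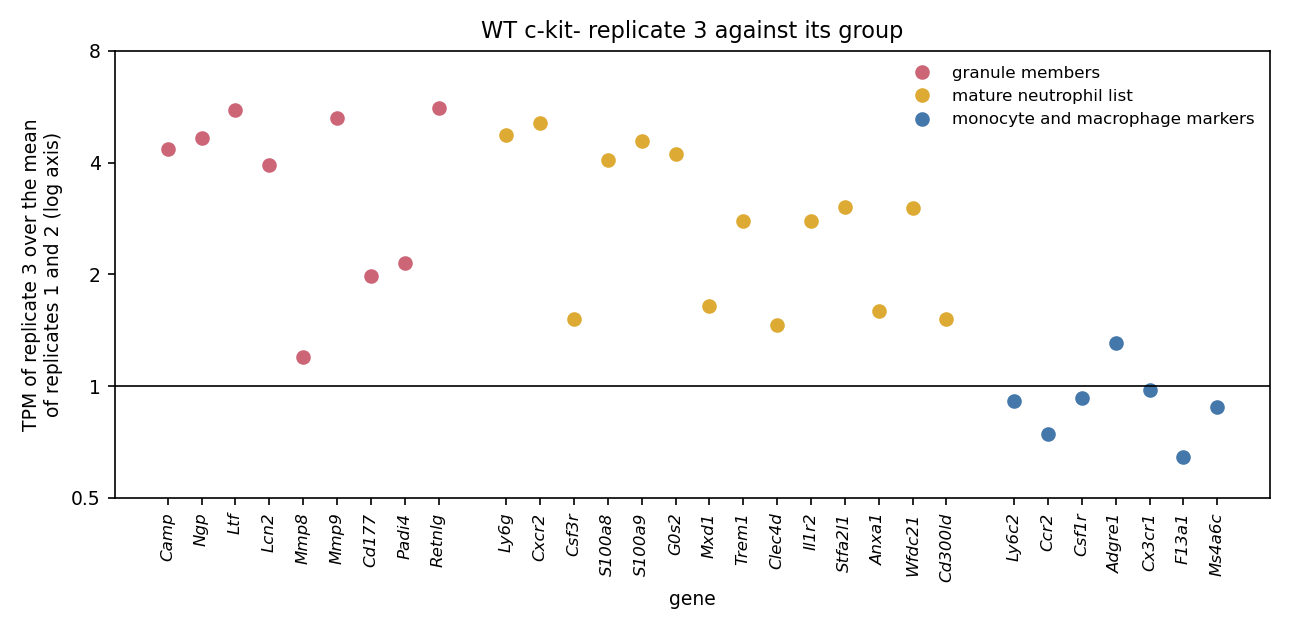
Ratio of the TPM value in WT c-kit- replicate 3 to the mean of replicates 1 and 2 (log axis) for genes of 3 lists, with 14 of the 15 mature neutrophil genes shown. All 9 granule genes and the 14 mature neutrophil genes shown lie above 1, the remaining mature neutrophil gene lies below it, and 1 of 7 monocyte and macrophage markers lies above it.

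In WT c-kit+ against WT c-kit-, 3 of the 9 granule genes rose (Camp, Ngp and Cd177), 1 fell (Mmp8) and 5 were not called. A gene was called when its log2 fold change from limma was 1 or more in either direction and its adjusted p (Benjamini-Hochberg, over all genes tested) was below 0.05. Of the 13261 genes tested, 4.83% were called higher and 9.61% lower, and the median log2 fold change was 1.18 for the granule genes and -0.08 for all genes. Without WT c-kit- replicate 3, Ltf and Lcn2 were called as well, making 5 higher and 1 lower. Over all 12830 genes tested without it, 724 were called higher and 1105 lower.

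In the libraries labelled IRF7-/- c-kit+ against WT c-kit+, 8 of the 9 fell and Retnlg was not called, against 5.39% of 13238 genes called lower. For all 9 genes every labelled library lay below every WT c-kit+ library, as it did for 20.1% of all genes. The median log2 fold change was -3.37 for the granule genes and 0.12 for all genes, so each value lies 0.12 further down when set against the shift of all genes (Camp, -5.94 in place of -5.82).

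Against WT c-kit-, the labelled libraries had 7 of the 9 lower, with Cd177 and Padi4 not called. Here 11.9% of 13510 genes were called lower, and the median log2 fold change was -2.73 for the granule genes and 0.03 for all genes. Without WT c-kit- replicate 3 there were again 7 called lower, with a median of -1.92. Over all 12899 genes tested without it, 1156 were called higher and 1172 lower. The list counts given below without that replicate are to be set beside the all-gene counts of the fits without it. The 3 comparisons share libraries pairwise, so that they are not independent of each other.

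**Figure D2:**
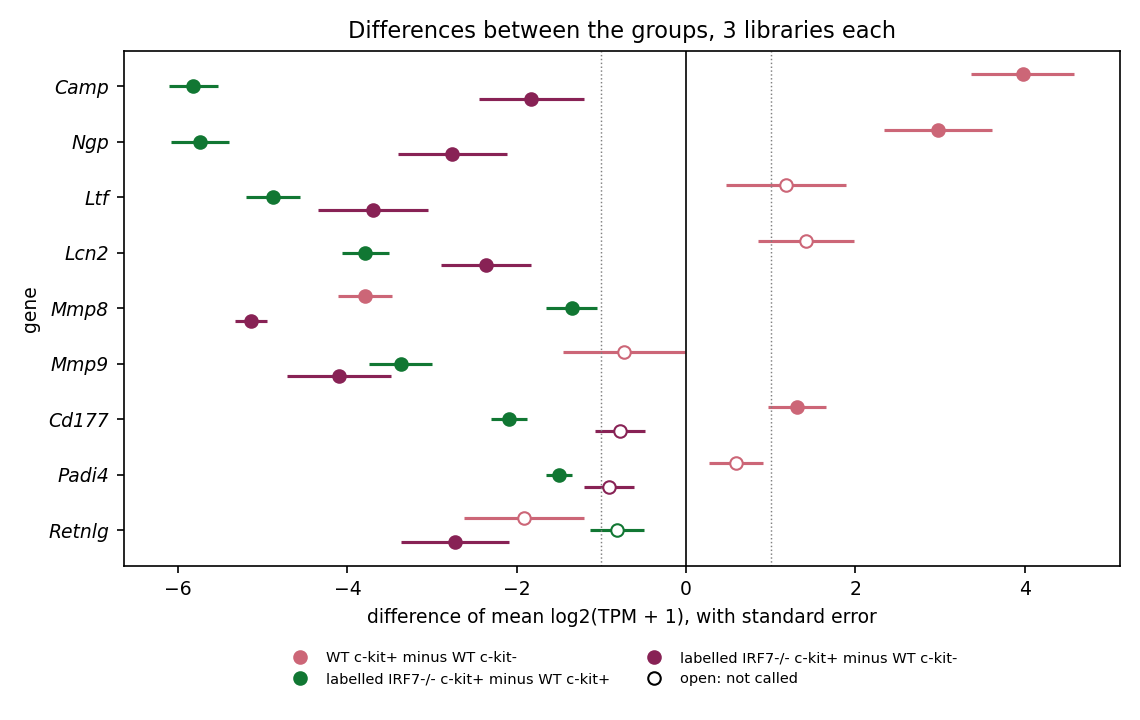
Difference of the group means of log2(TPM + 1) with its standard error for each granule gene in the 3 comparisons, 3 libraries in each group. Filled points were called, open points were not, and dotted lines mark a log2 fold change of 1 in size. All points of the labelled libraries against WT c-kit+ lie left of 0, from -5.82 for Camp to -0.82 for Retnlg.

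Camp and Ngp, both of the cathelicidin and cystatin-like family of secondary granules, were the most abundant of the 9 in WT c-kit+. Camp, whose product releases the antimicrobial peptide CRAMP, was at 254, 402 and 1426 TPM in WT c-kit- replicates 1, 2 and 3. It was at 10573, 6163 and 8922 TPM in WT c-kit+ and at 125, 219 and 116 TPM in the libraries labelled IRF7-/- c-kit+. The 3 groups did not overlap, with WT c-kit+ highest and the labelled libraries lowest. Mean Camp was 12.3-fold higher in WT c-kit+ than in WT c-kit- (log2 fold change 3.98, standard error, SE, 0.61, limma adjusted p = 0.00234; 4.70 without WT c-kit- replicate 3). It was 55.7-fold lower in the labelled libraries than in WT c-kit+ (log2 fold change -5.82, SE 0.29, limma adjusted p = 4.29e-05), the 6th lowest of the 13238 log2 fold changes. Against WT c-kit- the mean was 4.52-fold lower in the labelled libraries (-1.83, SE 0.62, limma adjusted p = 0.0389), and -1.11 without WT c-kit- replicate 3. This last call is the least firm of the Camp results: it was lost without WT c-kit- replicate 2 (-2.03, limma adjusted p = 0.0601), labelled replicate 1 (-1.72, 0.101) or labelled replicate 3 (-1.66, 0.104).

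Ngp, an abundant protein of mouse secondary granules, was at 641, 892 and 3576 TPM in WT c-kit-. It reached 13554, 6915 and 10791 TPM in WT c-kit+ and was at 159, 294 and 139 TPM in the labelled libraries. As for Camp, no library of one group reached into another. The log2 fold change of Ngp was 2.98 between the wild-type groups (SE 0.64, limma adjusted p = 0.0096; 3.73 without WT c-kit- replicate 3). Between the c-kit+ groups it was -5.74 (SE 0.34, limma adjusted p = 7.83e-05), a 52.7-fold lower mean and the 7th lowest of all genes. The labelled libraries were 8.62-fold below WT c-kit- (-2.76, SE 0.64, limma adjusted p = 0.00928; -2.01 without WT c-kit- replicate 3).

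The balance between Camp and Ngp followed the c-kit sort. Inside each library, where scaling between libraries plays no part, Camp TPM were 0.397, 0.451 and 0.399 times Ngp TPM in WT c-kit-. The ratio was 0.780, 0.891 and 0.827 in WT c-kit+ and 0.789, 0.744 and 0.832 in the labelled libraries. Both c-kit+ groups lay above the c-kit- group and overlapped each other, although the levels of both genes differed by over 50-fold between them (an exact two-sided permutation test of a c-kit+ group against WT c-kit- cannot go below p = 0.1). Replicate 3 of WT c-kit- did not stand apart in this ratio.

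Camp, Ngp, Ltf and Mmp8 lie on chromosome 9 and the other genes elsewhere (GENCODE M21, GRCm38; no other annotated gene overlaps any of the 9). Camp is at chr9:109847379-109849617 on the minus strand, Ngp at chr9:110419747-110423012 and Ltf at chr9:111019271-111042767, both on the plus strand, so that 570 kb separate Camp from Ngp and 596 kb separate Ngp from Ltf. Of the 51 other annotated genes of this 1.2 Mb interval, 15 were tested between the c-kit+ groups, with a median log2 fold change of 0.26. Pth1r and Prss42, named after their values were seen, were called higher, and the others were not called. Mmp8 lies far from these on the same chromosome, at chr9:7558456-7568485 on the plus strand.

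The sequences before the RefSeq start sites (GRCm38.p6) of these 4 genes are shown because Camp, Ngp and Ltf had the 3 largest falls among the 9 between the c-kit+ groups, while Mmp8 was the one gene that fell with c-kit in the wild-type cells. Each is 250 bases, 5′ to 3′ on the strand of the gene, with matches to TTNNGNAA, a C/EBP core searched on both strands, in capitals: Camp at chr9:109849457-109849706 (minus strand), Ngp at chr9:110419558-110419807 (plus), Ltf at chr9:111019042-111019291 (plus) and Mmp8 at chr9:7558179-7558428 (plus).
Camp: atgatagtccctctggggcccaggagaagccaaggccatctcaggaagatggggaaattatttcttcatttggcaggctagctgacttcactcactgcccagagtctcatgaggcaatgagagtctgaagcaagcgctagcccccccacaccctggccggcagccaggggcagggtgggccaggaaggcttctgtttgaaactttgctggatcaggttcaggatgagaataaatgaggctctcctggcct
Ngp: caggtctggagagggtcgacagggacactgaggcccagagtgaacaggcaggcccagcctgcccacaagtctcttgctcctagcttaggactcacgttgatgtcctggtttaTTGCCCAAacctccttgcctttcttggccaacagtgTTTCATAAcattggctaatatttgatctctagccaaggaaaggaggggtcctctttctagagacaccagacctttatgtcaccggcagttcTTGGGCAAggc
Ltf: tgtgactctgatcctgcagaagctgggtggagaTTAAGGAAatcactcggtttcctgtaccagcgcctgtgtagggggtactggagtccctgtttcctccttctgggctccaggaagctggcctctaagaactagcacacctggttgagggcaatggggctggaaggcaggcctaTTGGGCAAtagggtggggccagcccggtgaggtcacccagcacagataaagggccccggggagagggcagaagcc
Mmp8: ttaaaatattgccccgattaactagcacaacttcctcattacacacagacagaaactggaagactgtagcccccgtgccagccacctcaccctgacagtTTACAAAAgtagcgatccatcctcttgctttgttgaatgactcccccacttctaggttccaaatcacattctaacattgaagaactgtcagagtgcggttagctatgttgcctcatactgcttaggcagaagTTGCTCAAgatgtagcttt

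Camp had no match in this window, Ngp had 3 (first base at -138, -102 and -11 from the start site), Ltf had 2 (-217 and -75) and Mmp8 had 2 (-151 and -19). Over windows of 300 bases, 250 before to 50 after the start, 8 of the 9 genes were matched to the RefSeq promoter table used here. A match to TTNNGNAA was found in 6 of those 8, and in 40.7% of 32851 windows of the whole table. GAGGAA, a PU.1 core, was in 4 of the 8 and in 28.3% of all windows, and AAATCA, a GFI1 core, in 2 of the 8 and in 14% of all windows. Camp and Padi4 held none of the 3 motifs, and in Ltf the AAATCA match at -211 overlaps the TTNNGNAA match at -217. These matches are a description of the letters only.

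**Figure D3:**
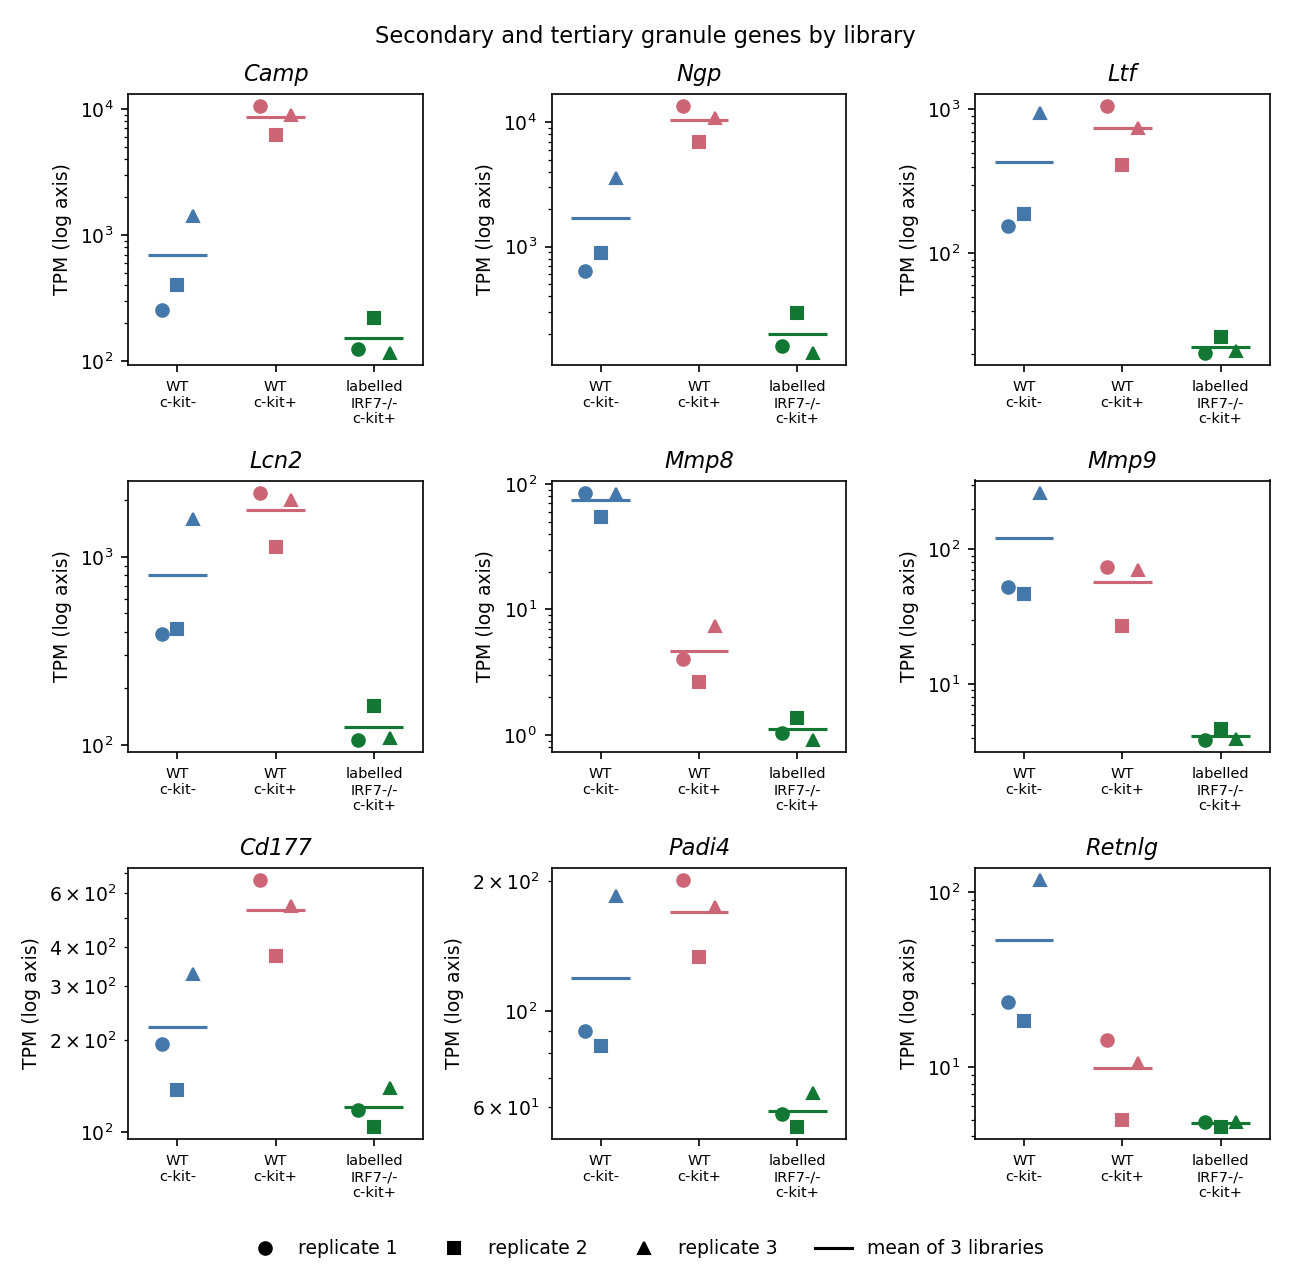
TPM of each granule gene in the 9 libraries (log axis, a separate range for each gene), with points for libraries and a line for the mean of 3. The libraries labelled IRF7-/- c-kit+ lie below all WT c-kit+ libraries for every gene, and WT c-kit- replicate 3 is the highest or near the highest of its group.

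Ltf and Lcn2 code for the iron-handling proteins of secondary granules: lactoferrin binds iron, and lipocalin 2 binds the siderophores with which bacteria collect it. Ltf was at 154, 188 and 950 TPM in WT c-kit-, at 1059, 411 and 742 TPM in WT c-kit+, and at 20.3, 26.1 and 21.1 TPM in the labelled libraries. The wild-type groups overlapped only through WT c-kit- replicate 3, and the labelled libraries lay below both. Between the wild-type groups the log2 fold change of Ltf was 1.18 (SE 0.71, limma adjusted p = 0.234), and 2.00 without WT c-kit- replicate 3 (limma adjusted p = 0.00975). Ltf fell by 4.88 on the log2 scale between the c-kit+ groups (SE 0.32, limma adjusted p = 0.000111), a 32.8-fold lower mean. Against WT c-kit- its mean was 19.1-fold lower in the labelled libraries (-3.70, SE 0.65, limma adjusted p = 0.00271; -2.88 without WT c-kit- replicate 3).

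Lcn2 (chr2:32384633-32388252, minus strand) was at 390, 416 and 1587 TPM in WT c-kit- and at 2192, 1130 and 2016 TPM in WT c-kit+. It was at 106, 160 and 109 TPM in the labelled libraries, below all others. Again WT c-kit- replicate 3 alone reached into the WT c-kit+ range. The log2 fold change of Lcn2 was 1.42 between the wild-type groups (SE 0.57, limma adjusted p = 0.0863), and 2.08 without that library (limma adjusted p = 0.00303). It was -3.79 between the c-kit+ groups (SE 0.28, limma adjusted p = 0.000166), a 14.2-fold lower mean, and -2.36 against WT c-kit- (SE 0.53, limma adjusted p = 0.00807; -1.70 without WT c-kit- replicate 3).

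Lcn2 and Ltf did not keep 1 ratio. Lcn2 TPM were 2.53, 2.21 and 1.67 times Ltf TPM in WT c-kit- and 2.07, 2.75 and 2.72 times in WT c-kit+. In the labelled libraries they were 5.23, 6.13 and 5.17 times Ltf TPM, above every wild-type library, whereas the wild-type groups overlapped.

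**Figure D4:**
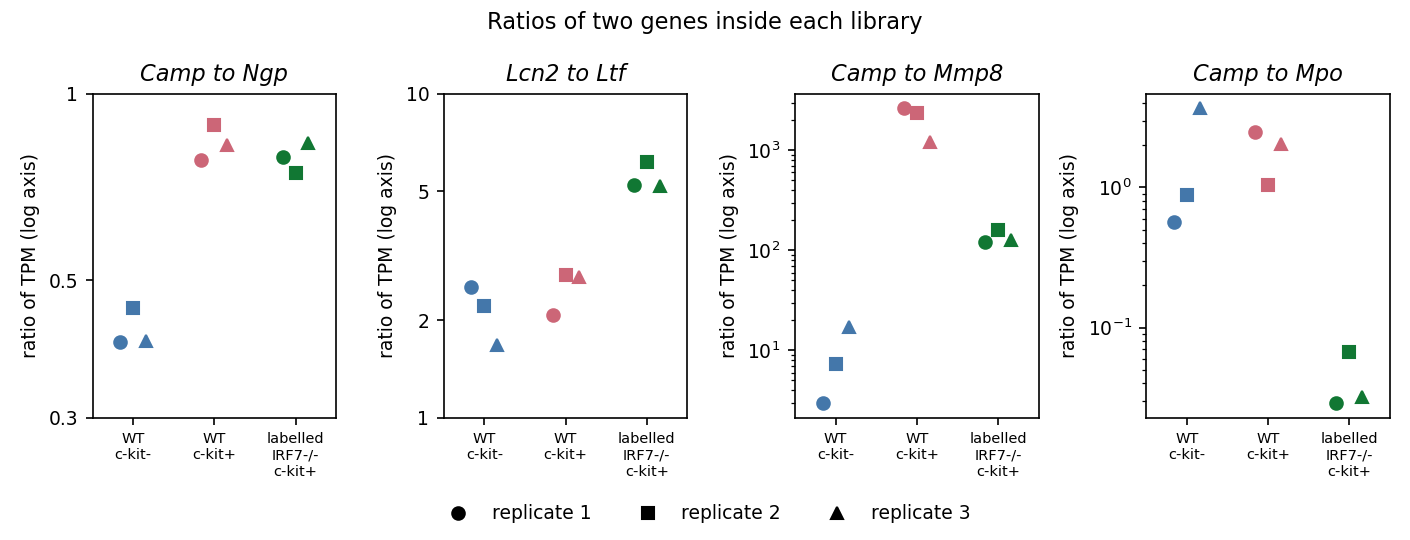
Ratios of the TPM values of a pair of genes inside each library (log axis), with a point for each library. Camp to Ngp is below 0.5 in WT c-kit- and above 0.7 in both c-kit+ groups, Lcn2 to Ltf is above 5 in the labelled libraries alone, and Camp to Mpo is under 0.1 in the labelled libraries and above 0.5 elsewhere.

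Mmp8 and Mmp9 code for the matrix-degrading enzymes of the granules, the neutrophil collagenase of secondary granules and the gelatinase of tertiary granules. Mmp8 was the one of the 9 called lower in WT c-kit+ than in WT c-kit-. It was at 85.1, 54.8 and 84.0 TPM in WT c-kit-, at 4.02, 2.63 and 7.40 TPM in WT c-kit+, and at 1.04, 1.37 and 0.91 TPM in the labelled libraries. The groups did not overlap, the c-kit- cells were highest, and replicate 3 of that group was level with replicate 1. Mean Mmp8 was 15.9-fold lower in WT c-kit+ than in WT c-kit- (log2 fold change -3.79, SE 0.32, limma adjusted p = 0.000184; -3.70 without WT c-kit- replicate 3). It was lower again in the labelled libraries, with -1.35 on the log2 scale against WT c-kit+ (SE 0.30, limma adjusted p = 0.0106). Against WT c-kit- the labelled libraries were 67.4-fold lower (-5.14, SE 0.19, limma adjusted p = 6.81e-06; -5.05 without WT c-kit- replicate 3). In the same library Camp TPM were 2.99, 7.33 and 17.0 times Mmp8 TPM in WT c-kit-, 2630, 2343 and 1206 times in WT c-kit+, and 121, 160 and 127 times in the labelled libraries, ranges that do not overlap.

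Mmp9 (chr2:164940780-164955850, plus strand) was at 52.9, 46.5 and 262 TPM in WT c-kit- and at 73.8, 26.8 and 70.1 TPM in WT c-kit+. It was at 3.85, 4.61 and 3.93 TPM in the labelled libraries. The wild-type groups overlapped and the labelled libraries were below both. Between the wild-type groups the log2 fold change of Mmp9 was -0.73 (SE 0.72, limma adjusted p = 0.456), and it turned to 0.06 without WT c-kit- replicate 3 (limma adjusted p = 0.928). Mmp9 fell by 3.37 on the log2 scale between the c-kit+ groups (SE 0.37, limma adjusted p = 0.000726), a 13.8-fold lower mean. Against WT c-kit- it was 29.2-fold lower in the labelled libraries (-4.10, SE 0.62, limma adjusted p = 0.00143; -3.31 without WT c-kit- replicate 3).

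Cd177, Padi4 and Retnlg are neutrophil genes whose products are not soluble granule proteins of the same kind: CD177 is a surface glycoprotein also held in secondary granule membranes, PAD4 citrullinates histones in the nucleus, and the Retnlg product is a secreted resistin-like protein. Cd177 (chr7:24743983-24760311, minus strand) was at 194, 137 and 329 TPM in WT c-kit-, at 664, 375 and 545 TPM in WT c-kit+, and at 118, 104 and 139 TPM in the labelled libraries. WT c-kit+ was above both other groups, which overlapped. Cd177 rose by a log2 fold change of 1.31 between the wild-type groups (SE 0.34, limma adjusted p = 0.0215), a call that was lost without WT c-kit- replicate 1 (1.27, 0.0631), WT c-kit- replicate 2 (1.02, 0.0532), WT c-kit+ replicate 1 (1.13, 0.0688) or WT c-kit+ replicate 3 (1.27, 0.0612). Without WT c-kit- replicate 3 it was 1.65 (limma adjusted p = 0.00544). It was -2.09 between the c-kit+ groups (SE 0.21, limma adjusted p = 0.000548) and -0.78 against WT c-kit- (SE 0.30, limma adjusted p = 0.0604). The last was called without WT c-kit- replicate 2 (-1.07, limma adjusted p = 0.0127) and was -0.44 without WT c-kit- replicate 3.

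Padi4 (chr4:140745865-140774236, minus strand) was at 89.9, 83.1 and 185 TPM in WT c-kit-, at 202, 134 and 175 TPM in WT c-kit+, and at 57.8, 54.0 and 64.8 TPM in the labelled libraries. Only WT c-kit- replicate 3 joined the WT c-kit+ range, and the labelled libraries were below all others. Its log2 fold change was 0.59 between the wild-type groups (SE 0.32, limma adjusted p = 0.186; 0.95 without WT c-kit- replicate 3, limma adjusted p = 0.00834, under the fold threshold). Padi4 fell by 1.50 on the log2 scale between the c-kit+ groups (SE 0.15, limma adjusted p = 0.000551). Against WT c-kit- it was -0.91 (SE 0.29, limma adjusted p = 0.0318), under the fold threshold. That threshold was passed without WT c-kit- replicate 1 (-1.07) or replicate 2 (-1.12), and the value was -0.55 without replicate 3.

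Retnlg (chr16:48872621-48874496, plus strand) was at 23.4, 18.3 and 117 TPM in WT c-kit-, at 14.2, 4.98 and 10.5 TPM in WT c-kit+, and at 4.86, 4.53 and 4.86 TPM in the labelled libraries. Like Mmp8 it was highest in the c-kit- cells, without overlap, but the spread in both wild-type groups was wide. The log2 fold change of Retnlg was -1.91 between the wild-type groups (SE 0.71, limma adjusted p = 0.0718; -1.10 without WT c-kit- replicate 3). It was -0.82 between the c-kit+ groups (SE 0.32, limma adjusted p = 0.0738), and was called without WT c-kit+ replicate 2 (-1.20, limma adjusted p = 0.00227). Against WT c-kit- Retnlg fell by 2.73 on the log2 scale in the labelled libraries (SE 0.64, limma adjusted p = 0.00949; -1.92 without WT c-kit- replicate 3).

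An exact two-sided permutation test of each gene cannot go below p = 0.1 with 3 libraries against 3. It gave that value wherever the groups did not overlap, and between 0.2 and 0.6 for the 4 genes that overlapped between the wild-type groups (Ltf, Lcn2, Mmp9 and Padi4) and for Cd177 in the labelled libraries against WT c-kit- (0.2).

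The 9 genes together took 2.86%, 1.53% and 2.35% of all TPM in WT c-kit+, of which Camp and Ngp held 84.7% to 86.3%. They took 0.191%, 0.226% and 0.862% in WT c-kit- and 0.0601%, 0.0876% and 0.0604% in the labelled libraries, where Camp and Ngp held 42.6% to 59.1% of the sum. The order of the means by length-scaled level also differed between groups. In WT c-kit+ it ran Ngp, Camp, Lcn2, Ltf, Cd177, Padi4, Mmp9, Retnlg and Mmp8. In the labelled libraries Ltf, at a mean of 22.5 TPM, came after Cd177 (121 TPM) and Padi4 (58.8 TPM), while in WT c-kit- Lcn2 (797 TPM) and Camp (694 TPM) were close, and their libraries overlapped.

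Other genes of the same granules moved with the 9 in part. Of 21 tested genes of a list of other secondary and tertiary granule products, 10 fell and 1 rose between the c-kit+ groups, with a median log2 fold change of -0.99. All genes had 5.39% called lower and 6.30% higher there. Olfm4, a marker of a subset of neutrophils, was at 112, 115 and 388 TPM in WT c-kit-, at 1201, 810 and 1115 TPM in WT c-kit+ and at 29.6, 88.3 and 33.8 TPM in the labelled libraries. Like Camp it was highest in WT c-kit+ and lowest in the labelled libraries, without overlap (-4.49 between the c-kit+ groups, SE 0.40, limma adjusted p = 0.000337). Against WT c-kit- Olfm4 was called lower in the labelled libraries (-1.92, SE 0.59, limma adjusted p = 0.0284). That call was lost without WT c-kit- replicate 3 (-1.33, limma adjusted p = 0.0534). Lyz2, lysozyme, fell by 2.60 between them (SE 0.24, limma adjusted p = 0.000391), and Slpi, a protease inhibitor named after its values were seen, was the one that rose (1.24, SE 0.09, limma adjusted p = 0.000166). Hp, haptoglobin, was between 1050 and 1440 TPM in all 9 libraries, and its log2 fold change between the c-kit+ groups was -0.12 (SE 0.07, limma adjusted p = 0.22). Of the same list, 5 rose (Olfm4, Orm1, Pglyrp1, Chil1 and Cd63) and 4 fell (Lyz2, Slc11a1, Adam8 and Hpse) in WT c-kit+ against WT c-kit-, and the counts were equal without WT c-kit- replicate 3. All genes had 4.83% called higher and 9.61% lower there. Cd63 is counted as listed, although its product is known as a membrane marker of primary granules. Its means were 34.1, 396 and 611 TPM in WT c-kit-, WT c-kit+ and the labelled libraries, the group order of Elane. In the labelled libraries against WT c-kit- 13 of 21 fell and Cd63 rose, beside 11.9% of all genes called lower and 8.40% higher (10 of 19 fell and 1 rose without WT c-kit- replicate 3). Those beside Olfm4 and Lyz2 are named after their values were seen.

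Primary granule genes, which are made earlier, had other counts. Of 10 tested, 8 rose in WT c-kit+ against WT c-kit-, Ctsc fell, and the median log2 fold change was 1.76. All genes had 4.83% called higher and 9.61% lower there. Between the c-kit+ groups 1 rose (Ctsg, 1.63), 2 fell (Prss57, -1.10, and Ctsc, -1.47; all 3 named after their values were seen) and the median was -0.00, against 6.30% of all genes called higher and 5.39% lower. In the labelled libraries against WT c-kit-, 8 rose and Ctsc fell, against 8.40% of all genes called higher and 11.9% lower. The wild-type counts and those of this comparison were the same without WT c-kit- replicate 3. Mpo, myeloperoxidase, was at 389 to 455 TPM in WT c-kit-, at 4264, 5947 and 4355 TPM in WT c-kit+ and at 4313, 3252 and 3608 TPM in the labelled libraries. Its log2 fold change between the c-kit+ groups was -0.38 (SE 0.17, limma adjusted p = 0.106), and that of Elane, neutrophil elastase, was 0.37 (SE 0.17, limma adjusted p = 0.119). Camp TPM were thus 2.48, 1.04 and 2.05 times Mpo TPM in WT c-kit+ and 0.0291, 0.0674 and 0.0321 times in the labelled libraries, without overlap. Ngp TPM were 2.65, 0.985 and 1.81 times Elane TPM in WT c-kit+ and 0.0181, 0.0464 and 0.0167 times in the labelled libraries.

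**Figure D5:**
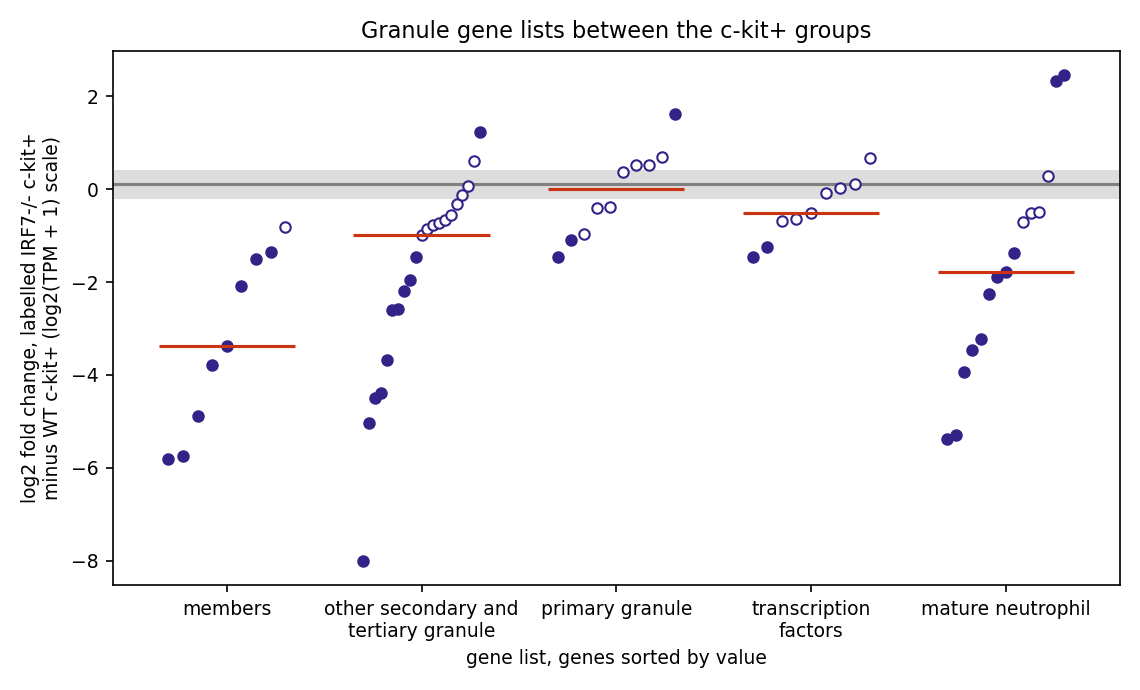
Log2 fold change of the libraries labelled IRF7-/- c-kit+ against WT c-kit+ for each tested gene of 5 lists, on the log2(TPM + 1) scale. Filled points were called, red lines are list medians (-3.37 for the 9 granule genes, -0.00 for primary granule genes), the grey line is the median of all genes (0.12) and the grey band their middle quartiles.

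Of 9 tested transcription factors known to act on granule genes, 2 fell between the c-kit+ groups and the others were not called, with a median log2 fold change of -0.51. All genes had 5.39% called lower there. Cebpe, which codes for C/EBP epsilon, was at 25.5, 27.6 and 70.4 TPM in WT c-kit-, at 366, 269 and 334 TPM in WT c-kit+ and at 132, 140 and 135 TPM in the labelled libraries. The labelled libraries lay between the wild-type groups, above every WT c-kit- library, whereas for Camp and Ngp they lay below both. Cebpe was 3.09 higher in WT c-kit+ than in WT c-kit- on the log2 scale (SE 0.37, limma adjusted p = 0.00084; 3.55 without WT c-kit- replicate 3). It fell by 1.24 between the c-kit+ groups (SE 0.11, limma adjusted p = 0.000355) and rose by 1.85 in the labelled libraries against WT c-kit- (SE 0.36, limma adjusted p = 0.00425; 2.31 without that replicate). Camp TPM were 9.99, 14.6 and 20.3 times Cebpe TPM in WT c-kit-, 28.9, 22.9 and 26.7 times in WT c-kit+, and 0.953, 1.57 and 0.860 times in the labelled libraries, again without overlap. For Ngp the wild-type groups overlapped, at 25.1, 32.3 and 50.8 times Cebpe TPM in WT c-kit- and 37.0, 25.7 and 32.3 times in WT c-kit+. In the labelled libraries Ngp TPM were 1.21, 2.11 and 1.03 times Cebpe TPM, below both. The other factor that fell was Klf5 (-1.45, SE 0.27, limma adjusted p = 0.0049; named after its values were seen). Gfi1, a repressor needed for neutrophil development, had -0.51 (SE 0.13, limma adjusted p = 0.0172), under the fold threshold, and Spi1, which codes for PU.1, had -0.08 (SE 0.07, limma adjusted p = 0.362). In WT c-kit+ against WT c-kit- 3 factors rose (Cebpe, Gfi1 and Klf5) and Cebpb fell, and in the labelled libraries against WT c-kit- 2 rose (Cebpe and Gfi1) and 2 fell (Cebpb and Runx1; Cebpb and Runx1 named after their values were seen). Without WT c-kit- replicate 3 these were 3 and 1, and 3 and 2. With all libraries, 4.83% of all genes were called higher and 9.61% lower between the wild-type groups. For the labelled libraries against WT c-kit- the shares were 8.40% and 11.9%.

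Of the 15 mature neutrophil genes, 9 fell and 2 rose between the c-kit+ groups, with a median log2 fold change of -1.79. All genes had 5.39% called lower and 6.30% higher there. S100a9, a subunit of calprotectin, was at 2979, 3702 and 15307 TPM in WT c-kit-, at 53539, 26183 and 39286 TPM in WT c-kit+ and at 778, 1206 and 793 TPM in the labelled libraries. This is the order of Camp and Ngp, also within the wild-type groups (-5.39 between the c-kit+ groups, SE 0.29, limma adjusted p = 5.76e-05). S100a8, its partner, fell by 5.29 (SE 0.25, limma adjusted p = 3.88e-05) and Ly6g, the antigen used to sort mouse neutrophils, by 3.93 (SE 0.33, limma adjusted p = 0.00026). The 2 that rose, named after their values were seen, were Clec4d (2.34) and Cd300ld (2.46). Between the wild-type groups 4 of the 15 rose (S100a8, S100a9, G0s2 and Wfdc21) and 3 fell (Clec4d and Cd300ld among them, these and G0s2 and Wfdc21 named after their values were seen; 6 and 3 without WT c-kit- replicate 3), and in the labelled libraries against WT c-kit- 8 fell and the others were not called (6 of 14 fell and 1 rose without it). With all libraries, 4.83% of all genes were called higher and 9.61% lower in the first comparison, and 11.9% lower in the second.

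Markers of other cells were low or had another order of groups. The 7 monocyte and macrophage markers summed to between 4992 and 6200 TPM in WT c-kit-, 2233 and 2607 TPM in WT c-kit+, and in the labelled libraries 2703 and 3348 TPM, and Cx3cr1, named after its values were seen, was the 1 called between the c-kit+ groups (-1.90, limma adjusted p = 0.007). Of these 7 markers, 6 were called lower in WT c-kit+ than in WT c-kit- (median log2 fold change -2.36), beside 9.61% of all genes. In the labelled libraries against WT c-kit- 5 of the 7 were called lower (median -2.20), beside 11.9% of all genes. T cell markers summed to at most 1.58 TPM and erythroid markers to at most 17.4 TPM in any library. B cell markers summed to between 26.4 and 38.1 TPM, megakaryocyte and platelet markers to at most 4.95 TPM, eosinophil markers to at most 20.1 TPM and basophil and mast cell markers to between 18.5 and 79.2 TPM. Markers of leukemic or immature myeloid cells summed to between 666 and 912 TPM in the 9 libraries. Their part in the results was not tested.

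Genes with a pattern most like that of the 9 were sought by Pearson's r over the 9 libraries, between log2(TPM + 1) of each of 11055 genes with a mean of at least 5 TPM in a group and the mean of the centred granule genes. The first were Mxd1 (r = 0.998), Pram1 (0.992), Plxnc1 (0.992), Pilra (0.991) and Pitpnm1 (0.989). Mxd1, a MAX-binding repressor that is also on the mature neutrophil list, was at 16.4, 17.2 and 27.6 TPM in WT c-kit-, at 26.4, 21.04 and 24.9 TPM in WT c-kit+ and at 8.26, 9.51 and 8.11 TPM in the labelled libraries. It shared the low WT c-kit+ replicate 2 with all 9, and the high WT c-kit- replicate 3 with all but Mmp8. Among the 9, r of each with the mean of the other 8 was highest for Ltf (0.995) and Lcn2 (0.971), 0.955 for Padi4, 0.936 for Mmp9, 0.893 for Ngp, 0.852 for Cd177 and 0.778 for Camp. Retnlg (0.611) and Mmp8 (0.437), both highest in the c-kit- cells, were the least like the rest. These values describe 9 libraries in 3 groups that share their normalization, and carry no p.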

How the data were processed

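RNA-seq, by the labels made with an Illumina TruSeq RNA v2 kit (the study's methods speak of a microarray), was analysed in 9 libraries, with groups and replicate numbers from the sample titles. The values deposited by the authors are TPM of 55536 genes in 1 table, already aligned, quantified and scaled by gene length and library total. The unit was read from the library sums, 987468 to 992231. Aligner, genome build, strand setting and filters are not given in the sources used here. All 55536 identifiers match GENCODE M21 (GRCm38), which gave positions. A column name that ends in a doubled digit was matched to WT c-kit+ replicate 3, the one sample it resembles. TPM of a library depend on its most abundant genes and keep no depth, so the 3 libraries of a group alone give the precision.
Differences were tested with limma 3.58.1 in R 4.3.3 (lmFit, eBayes with trend) on log2(TPM + 1), keeping genes that reached 1 TPM in 3 or more of the 6 libraries of a comparison. This scale understates the change of low genes such as Mmp8. Fold values are ratios of mean TPM. To be called, a gene needed a log2 fold change of 1 or more in either direction with an adjusted p (Benjamini-Hochberg) below 0.05. Exact permutation tests were two-sided on log2(TPM + 1).
The 9 genes, the other lists and the motifs were chosen with earlier results of these data known. Named genes were the 9, from each list the 2 with the highest mean, a fixed set of known partners, paralogs and markers (Cebpe, Gfi1, Fpr2, Slc22a17, Timp1, Ly6g, Olfm4, Mpo, Elane, Retn and Padi2), and the 5 most alike in pattern. Others are marked, and 1 gene of the mature neutrophil list is counted but not reported here. Alternatives were no filter, a 5 TPM filter, quantile and median-ratio scaling, a pseudocount of 0.1, leaving the 9 genes out of the total, a fit of all 9 libraries, a replicate block, an unadjusted p and each library left out; list counts without WT c-kit- replicate 3 were added after the data were seen. Promoter windows came from RefSeq. Python 3.11.15, pandas 2.3.3, scipy 1.17.1 and matplotlib 3.10.9 were used.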

Additional observations from a re-analysis of the deposited data

How the results depend on the processing

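Over the alternatives other than the unadjusted p, 357 log2 fold changes of the 9 genes kept their direction and their side of the thresholds, 9 lost the call, 9 gained it and 1 turned direction. With the unadjusted p, Lcn2 (1.42, limma unadjusted p = 0.0416) and Retnlg (-1.91, limma unadjusted p = 0.033) also passed the thresholds between the wild-type groups. The number of the 9 called stayed within 1.5 times in all 45 alternatives, at 3 to 6 (4 as reported) in WT c-kit+ against WT c-kit-, 7 to 9 (8) between the c-kit+ groups and 6 to 8 (7) in the labelled libraries against WT c-kit-. Of the counts over all genes 1 moved by more, between the c-kit+ groups from 1548 to 1015 genes with a filter of 5 TPM, which tests fewer genes and neither Mmp8 nor Retnlg.
Between the wild-type groups, Lcn2 was called with all 9 libraries in one fit (1.42, limma adjusted p = 0.0477), as was Retnlg (-1.91, 0.0336), and Cd177 was lost with no filter (1.31, limma adjusted p = 0.0563). Camp in the labelled libraries against WT c-kit- was lost with no filter (-1.83, limma adjusted p = 0.0907), which tests more genes. The cause of the other changes was not tested.
With each library left out, log2 fold changes between the wild-type groups ran from 0.70 to 2.00 for Ltf, 1.07 to 2.08 for Lcn2, -1.17 to 0.06 for Mmp9 and 1.02 to 1.65 for Cd177. Retnlg ran from -1.20 to -0.53 between the c-kit+ groups. In the labelled libraries against WT c-kit-, Camp ran from -2.36 to -1.11, Cd177 from -1.07 to -0.44 and Padi4 from -1.12 to -0.55.
Whether replicate numbers pair the libraries was not settled. Of the correlations between same-numbered libraries of different groups, 1 of 9 was over 0.1 (range -0.07 to 0.24, and -0.18 to 0.14 for different numbers). Between WT c-kit- and WT c-kit+, the groups that could share a mouse, they were -0.07, 0.24 and 0.05 for replicates 1, 2 and 3. These are too few to tell. The replicate block gained the call of Retnlg between the wild-type groups (-1.91, limma adjusted p = 0.0426) and changed no other call of the 9. Depth is not known from TPM, so a gene near 1 TPM, such as Mmp8 in the labelled libraries, has no counting error given.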

Other observations

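Binding partners and paralogs of the 9 products had patterns of their own. Of 7 tested receptors and partners, 2 rose and 2 fell between the c-kit+ groups, where 6.30% of all genes were called higher and 5.39% lower. Slc22a17, a cell surface receptor of lipocalin 2, was at 2.27, 1.10 and 1.53 TPM in WT c-kit-, at 0.90, 0.71 and 0.83 TPM in WT c-kit+ and at 34.1, 32.1 and 32.1 TPM in the libraries labelled IRF7-/- c-kit+. It rose by 4.22 on the log2 scale between the c-kit+ groups (SE 0.10, limma adjusted p = 2.63e-06), where Lcn2 fell by 3.79. Fpr2, a receptor for cathelicidin peptides, was at 71.8, 37.3 and 79.4 TPM in WT c-kit+ and at 1.14, 0.82 and 0.65 TPM in the labelled libraries (-5.03, SE 0.28, limma adjusted p = 6.57e-05), and Cxcr2, named after its values were seen, was the other that fell (-2.25). Pecam1, a partner of CD177, rose by 1.21 (SE 0.09, limma adjusted p = 0.00021), where Cd177 fell by 2.09. Between the wild-type groups 3 of the 7 fell (P2rx7, Lrp1 and Pecam1), and in the labelled libraries against WT c-kit- Slc22a17 rose and 4 fell (Fpr2, P2rx7, Lrp1 and Cxcr2; P2rx7 and Lrp1 named after their values were seen). Without WT c-kit- replicate 3 3 fell between the wild-type groups, and 1 rose and 3 fell in the other comparison, of 6 tested. With all libraries, 9.61% of all genes were called lower between the wild-type groups. In the other comparison 8.40% were called higher and 11.9% lower. Fpr2 is also on the list of other granule genes and Cxcr2 on that of mature neutrophil genes.
Of 16 paralogs, 4 passed the filter, of which 2 rose (Trf and Mmp19) and Padi3 fell between the c-kit+ groups (Mmp19 and Padi3 named after their values were seen). All genes had 6.30% called higher and 5.39% lower there. Padi2, a relative of Padi4, was at 127, 121 and 128 TPM in WT c-kit-, at 15.7, 20.6 and 20.2 TPM in WT c-kit+ and at 28.8, 26.2 and 27.6 TPM in the labelled libraries, highest in the c-kit- cells without overlap. Its log2 fold change was -2.68 between the wild-type groups (SE 0.11, limma adjusted p = 1.62e-05; -2.66 without WT c-kit- replicate 3), where that of Padi4 was 0.59, and the difference between the genes was not tested. Trf, transferrin, a relative of lactoferrin, rose by 1.59 between the c-kit+ groups (SE 0.19, limma adjusted p = 0.000934), where Ltf fell by 4.88. Retn, the resistin gene, was at most 0.27 TPM in any library. Of 5 inhibitors of matrix metalloproteinases, Timp1 was at most 0.44 TPM in any library, and Timp2, at 5.27 to 18.5 TPM, was not called in any comparison.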
